A study of Homo sapiens with 4 samples.

Results

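The replication-dependent histone genes are the repeated genes that make the bulk of the linker histone H1 and of the core histones H2A, H2B, H3 and H4. Members were taken by name, as every gene whose symbol starts with H2AC, H2BC, H3C or H4C followed by a number, or is one of H1-1 to H1-6. The deposited tables held 71 such genes among 22985 named genes, on 80 of 41351 rows, and the name rule used no measured value. By class they were 6 H1, 18 H2A, 19 H2B, 13 H3 and 15 H4 genes, of which 2 (H2AC2P and H2BC20P) are transcribed pseudogenes and 69 code for protein.

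Total RNA freed of ribosomal RNA was sequenced from 2 human prostate cancer cell lines, with 2 libraries per line. LNCaP, established from a lymph node metastasis and given in the labels as primary prostate cancer, was compared with C4-2, its subline given as castration-resistant. The labels name no further treatment, and both lines grew in RPMI with charcoal-stripped serum, which is depleted of steroids. The stored name of each table is that of the other cell line, so the libraries are called here by their sample labels, and every direction below would turn round if the stored names were right. The labels do not say whether replicates are separate cultures, and the p-values then measure only the spread between these libraries, which may be technical.

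Histone messages of this kind are made mainly while DNA is copied. They are the only known animal messages of protein-coding genes that normally end without a poly(A) tail: in place of a tail they end just after a short stem-loop, which the stem-loop binding protein SLBP holds for processing, translation and decay. RNA prepared by removal of ribosomal RNA, without selection for poly(A) tails, can therefore show them.

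The stem-loop is the sequence that sets this gene group apart, so it was read at each member from the GRCh37 genome, the build of the deposited coordinates. A match to the 16-base histone stem-loop consensus was found at 70 of 71 members, all but the pseudogene H2BC20P. The search covered 200 bases, after the coding sequence where the annotation gave one and around the end of the row otherwise, as for 6 of the 70. In the 64 members with a coding sequence it began a median of 35 bases after the end of the coding sequence, with a range of 22 to 67. The sites below belong to members with high levels or large differences, in message sense and 5′ to 3′, with the stem-loop in capitals.
H1-2 (chr6:26055967-26055992, minus strand): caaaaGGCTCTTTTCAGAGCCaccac
H2AC11 (chr6:27101289-27101314, plus strand): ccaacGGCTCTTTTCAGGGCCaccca
H2BC4 (chr6:26123695-26123720, minus strand): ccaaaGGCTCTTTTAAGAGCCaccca
H2BC9 (chr6:26252278-26252303, plus strand): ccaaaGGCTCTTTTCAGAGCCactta
H3C11 (chr6:27839623-27839648, minus strand): caaaaGGCTCTTTTCAGAGCCcctca
H4C3 (chr6:26104540-26104565, plus strand): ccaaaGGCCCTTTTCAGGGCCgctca
H4C16 (chr12:14923653-14923678, minus strand): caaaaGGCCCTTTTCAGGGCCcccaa

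The members used 11 distinct stem-loops, and the commonest, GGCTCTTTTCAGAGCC, was at 40 of them. The H4 genes differed from the other classes in this sequence. All 15 H4 stem-loops began with GGCCC, against 1 of 55 in the other classes, that of the pseudogene H2AC2P. Most deposited gene models ended at this element: for 59 of 66 members with a site inside the row used, the row ended within 10 bases of the end of the stem-loop. The 4 rows that ran more than 100 bases past it were those of H2BC5, H2BC12, H2BC18 and H2BC21.

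The libraries held 58925680 and 70459588 sense tags on named genes in LNCaP and 163126630 and 119080520 in C4-2. As a share of the total that the deposited RPKM values are scaled to, these tags came to 31.0% and 35.6% in LNCaP and to 67.7% and 69.4% in C4-2. Because of this gap the choice of scaling moved the fold change of the median gene by 1.004 on the log2 scale. The median over all 15975 genes tested was -0.01 with TMM scaling, which assumes that most genes do not change, and 0.99 with the library totals. All 10 prostate epithelial markers were detected, at levels of 3.22 to 422, and the 12 basal, fibroblast, endothelial and immune markers stood at 0 to 1.39. A level here is the TMM-scaled RPKM, a count per library size and per kilobase of exon.

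The histone genes as a group took a larger share of gene tags in the libraries labelled LNCaP. Their share of sense tags was 0.768% and 0.988% in LNCaP and 0.465% and 0.446% in C4-2, so that the groups did not overlap and the LNCaP mean was 1.93-fold higher. With the library totals as the denominator the shares were 0.238% and 0.352% in LNCaP against 0.315% and 0.310% in C4-2, and the groups overlapped. Counting identical members once gave 0.710% and 0.903% in LNCaP and 0.419% and 0.401% in C4-2. An exact permutation test of 2 libraries against 2 cannot go below p = 0.333, so the share is given without a test. In bulk RNA, fewer cells in the phase of DNA copying and less histone message per cell cannot be told apart.

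**Figure D1:**
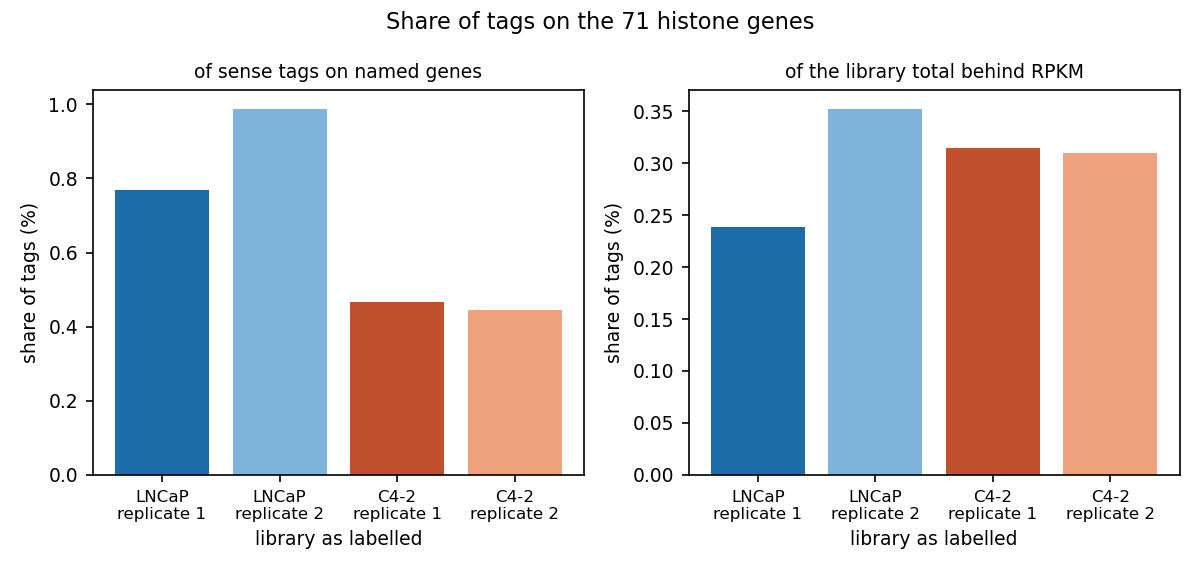
Share of tags (%, bars from 0) on the 71 histone genes in each library, as a share of sense tags on named genes (left) and of the library total behind RPKM (right). On the left both LNCaP bars (0.768 and 0.988) stand above both C4-2 bars (0.465 and 0.446), and on the right LNCaP replicate 1 is the lowest bar at 0.238.

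Of the 71 members, 63 passed the filter on low counts. With TMM scaling, 6 were higher and 41 lower in C4-2 and 16 were not called (edgeR quasi-likelihood test, Benjamini-Hochberg adjusted p under 0.05 over all genes tested). Over all genes tested, 80.0% were called, 40.2% higher and 39.7% lower, so the members were called about as often as other genes (74.6%) but with 65.1% lower and 9.5% higher. The libraries of the groups did not overlap for 51 members, 44 of them lower and 7 higher in C4-2, where the background over all genes was 89.9%, with 45.4% lower and 44.6% higher. The median log2 fold change of the members was -0.60 with TMM and 0.40 with library totals. Library totals gave 35 higher and 13 lower, so the direction of the group as a whole rests on the scaling. Under library totals 42 tested members had a positive value, as had 13029 of all 15975 genes tested. The member median lay below the all-gene median, which was -0.01 with TMM and 0.99 with library totals.

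A core of members kept its call under both scalings. The 13 lower in C4-2 both ways were H1-2, H1-5, H2AC4, H2AC7, H2AC8, H2AC11, H2BC1, H3C11, H3C13, H4C3, H4C11, H4C12 and H4C16. The 6 higher both ways were H2BC8, H2BC9, H2BC10, H2BC18, H2BC21 and H3C12, all but the last from the H2B class. They are all the members called higher with TMM alone, while 20 were called higher once GC content and length were also corrected for. Library totals raised the fold change of the median gene by 1.004 on the log2 scale, so that scaling could not put a call of higher to the test. Another 14 members were lower with TMM and higher with library totals. Where the 2 libraries of a line agreed within 2-fold, 9 of the 13 and 4 of the 6 remained, since H2AC8, H2AC11, H2BC1, H3C13, H2BC9 and H2BC10 have a larger gap.

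**Figure D2:**
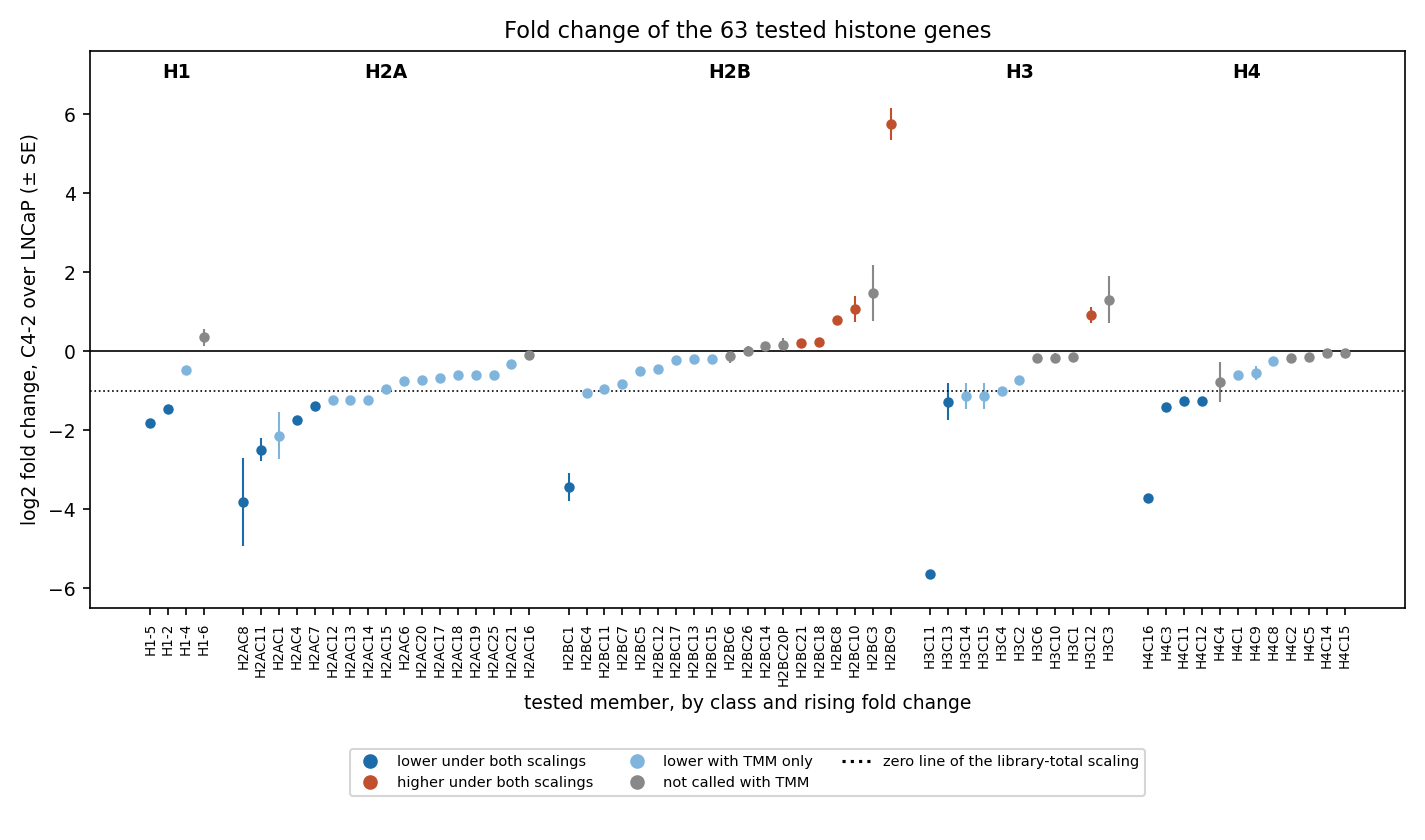
Log2 fold change of C4-2 over LNCaP with TMM scaling (points, bars ± SE) for the 63 tested members, grouped by class, with the dotted line at the place where zero lies when library totals are used. H2A members lie at or below the solid zero line, while 5 H2B members are called higher.

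The linker histones, which sit on the DNA between nucleosomes, were led by H1-2, H1-5 and H1-4. The level of H1-2 was 910.3 and 986 in LNCaP and 345 and 342 in C4-2, a log2 fold change of -1.47 ± 0.05 (SE, n = 2 libraries a line, edgeR adjusted p = 7.14e-08). H1-5 stood at 566 and 615 in LNCaP and at 166 and 169 in C4-2, a log2 fold change of -1.82 ± 0.05 (edgeR adjusted p = 4.18e-08). For both genes the LNCaP libraries lay far above the C4-2 libraries, and the call held with library totals, at -0.46 and -0.81. H1-2 also had 8827 tags on the opposite strand in LNCaP replicate 1, 22.0% of its sense tags there.

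H1-4 stood closer between the lines. Its levels were 389 and 413 in LNCaP and 295 and 282 in C4-2, a log2 fold change of -0.48 ± 0.05 that became 0.53 with library totals. H1-6, the linker histone of the testis, was at 1.19 and 1.58 in LNCaP and 2.00 and 1.54 in C4-2, with overlapping groups and no call. H1-1 had 6 and 5 tags in LNCaP and 1 and 0 in C4-2 and was not tested. H1-3 had 0 sense tags in all 4 libraries, where a count of 0 allows up to 3 tags per library, although its stem-loop (chr6:26234440-26234465, minus strand: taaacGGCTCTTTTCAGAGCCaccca) matches the commonest form. Across the class, 3 of 4 tested members were lower and none higher, where 39.7% of all genes tested were lower. The median log2 fold change was -0.97 with TMM and 0.03 with library totals. The summed level of the H1 genes was 1866 and 2016 in LNCaP and 808 and 795 in C4-2.

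H2A was the class with the most uniform call with TMM. H2A and H2B form the dimers on the outside of the nucleosome core. With TMM 16 of 17 tested H2A genes were lower in C4-2 and none higher, where 39.7% of all genes tested were lower. The median log2 fold change of -0.96 became 0.04 with library totals. With library totals 6 were higher, 4 lower and 7 not called. The summed level of the class was 4931 and 7139 in LNCaP and 2695 and 2575 in C4-2.

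H2AC11 had the highest mean level, carried by LNCaP replicate 2, at 797 and 1739 in LNCaP and 231 and 222 in C4-2. Both LNCaP libraries lay above both C4-2 libraries, but replicate 2 was 2.18-fold above replicate 1. In LNCaP replicate 1 both H4C3 and H1-2 stood above it, and in C4-2 several members did. Its log2 fold change was -2.49 ± 0.30 (edgeR adjusted p = 9.75e-05), and -1.81 without LNCaP replicate 2. H2AC20 stood at 532 and 588 in LNCaP and 360.3 and 312 in C4-2, a log2 fold change of -0.74 ± 0.08 with TMM and 0.26 with library totals.

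H2AC18 and H2AC19 are copies, each listed at the same 2 places on chromosome 1 with identical counts, so they give 1 measurement per place. At the minus-strand place, the one used in the counts above, the level was 545 and 597 in LNCaP and 376 and 375 in C4-2, a log2 fold change of -0.61 ± 0.05 with TMM (edgeR adjusted p = 1.16e-05) and 0.40 with library totals. At the plus-strand place it was 414 and 463 in LNCaP and 601 and 299.9 in C4-2, with overlapping groups and a log2 fold change of 0.04 ± 0.26 (edgeR adjusted p = 0.892). The lower call thus held at 1 of the 2 places. It was also lost when tags of both strands were summed, at -0.10 (edgeR adjusted p = 0.697). H2AC13 and H2AC14 share a run of 332 identical bases and had log2 fold changes of -1.23 and -1.22, so tags could have been placed at either.

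H2AC8 shows how 1 library can set a value. Its level was 33.4 in LNCaP replicate 1, 835 in LNCaP replicate 2, and 31.5 and 30.4 in C4-2. LNCaP replicate 1 stood close to both C4-2 libraries, and LNCaP replicate 2 was 25.01-fold above it, with 33352 tags against 1132. The log2 fold change was -3.81 ± 1.12 with all libraries (edgeR adjusted p = 0.0136) and -0.11 without LNCaP replicate 2 (edgeR adjusted p = 0.158).

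H2B was the most divided class with TMM. Of 19 tested H2B genes, 5 were higher and 9 lower in C4-2 (26.3% and 47.4%), against 40.2% and 39.7% of all genes tested. The class median log2 fold change was -0.13 with TMM and 0.87 with library totals. With library totals 15 were higher, 1 lower and 3 not called, and 17 of the 19 had a positive value. Under that scaling 13029 of all 15975 genes tested were positive too, with a median of 0.99. The summed level was 2115 and 2296 in LNCaP and 1618 and 1519 in C4-2, a smaller difference than in H2A. The 4 genes with the highest mean deposited RPKM were all lower with TMM. H2BC4 stood at 509.5 and 546 in LNCaP and 251 and 254 in C4-2, a log2 fold change of -1.06 ± 0.05 (edgeR adjusted p = 3.61e-07), and its value with library totals was -0.06.

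H2BC11 stood at 284 and 306 in LNCaP and 158 and 148 in C4-2, a log2 fold change of -0.95 ± 0.05 with TMM and 0.05 with library totals. H2BC12 and H2BC5 moved less, with log2 fold changes of -0.44 ± 0.05 and -0.50 ± 0.05 that became 0.56 and 0.51 with library totals. The levels of H2BC12 were 264 and 282 in LNCaP and 205 and 198 in C4-2, and those of H2BC5 were 245 and 263 against 182 and 178. For all 3 genes the groups did not overlap on the TMM scale. The H2BC5 call was lost with correction for GC content and length, at -0.06 (edgeR adjusted p = 0.147).

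By level, the H2B genes that were higher in C4-2 were low to middling. A level depends on row length, and the rows of H2BC18 and H2BC21 run past the stem-loop, with 1812 and 2223 exon bases. H2BC21 had 7637 and 9097 tags in LNCaP and 24514 and 16647 in C4-2. H2BC4 had 13408 and 16917 in LNCaP and 17641 and 13145 in C4-2. H2BC9 had 1 and 4 tags in LNCaP and 386 and 214 in C4-2, and its level was 0.04 and 0.13 against 5.65 and 4.27. Its log2 fold change of 5.75 ± 0.40 was the highest of the members (edgeR adjusted p = 3.61e-06), and the few LNCaP tags make its size uncertain. H2BC8 stood at 28.3 and 31.7 in LNCaP and 52.5 and 52.1 in C4-2, a log2 fold change of 0.80 ± 0.07 (edgeR adjusted p = 1.33e-05).

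H2BC10 stood at 8.72 and 8.50 in LNCaP and at 24.7 and 11.3 in C4-2, a log2 fold change of 1.08 ± 0.33 (edgeR adjusted p = 0.0154). Its C4-2 libraries differed 2.19-fold from each other, and both lay above LNCaP. The value was 0.40 without C4-2 replicate 1, and DESeq2 did not call the gene (adjusted p = 0.0616). H2BC18 and H2BC21, both of the chromosome 1 cluster, were higher by 0.23 ± 0.04 and 0.20 ± 0.05 on the log2 scale. H2BC1, the testis form of H2B, was singled out after its values were seen: its level was 2.93 and 3.10 in LNCaP and 0.17 and 0.41 in C4-2.

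H2BC5 has a short gene model that ends at the stem-loop and a spliced model with 326 more exon bases beyond it, and the deposited rows of the 2 differ by the tags in those bases. The share of H2BC5 tags outside the short model was 1.78% (95% Wilson interval 1.56 to 2.04) and 1.65% (1.46 to 1.86) in LNCaP. In C4-2 it was 2.70% (2.50 to 2.91) and 2.62% (2.39 to 2.87). The intervals of the lines did not overlap, and they cover counting error only. The 3 other members with rows running past the stem-loop were H2BC12, which was lower with TMM, and H2BC18 and H2BC21, which were higher.

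**Figure D3:**
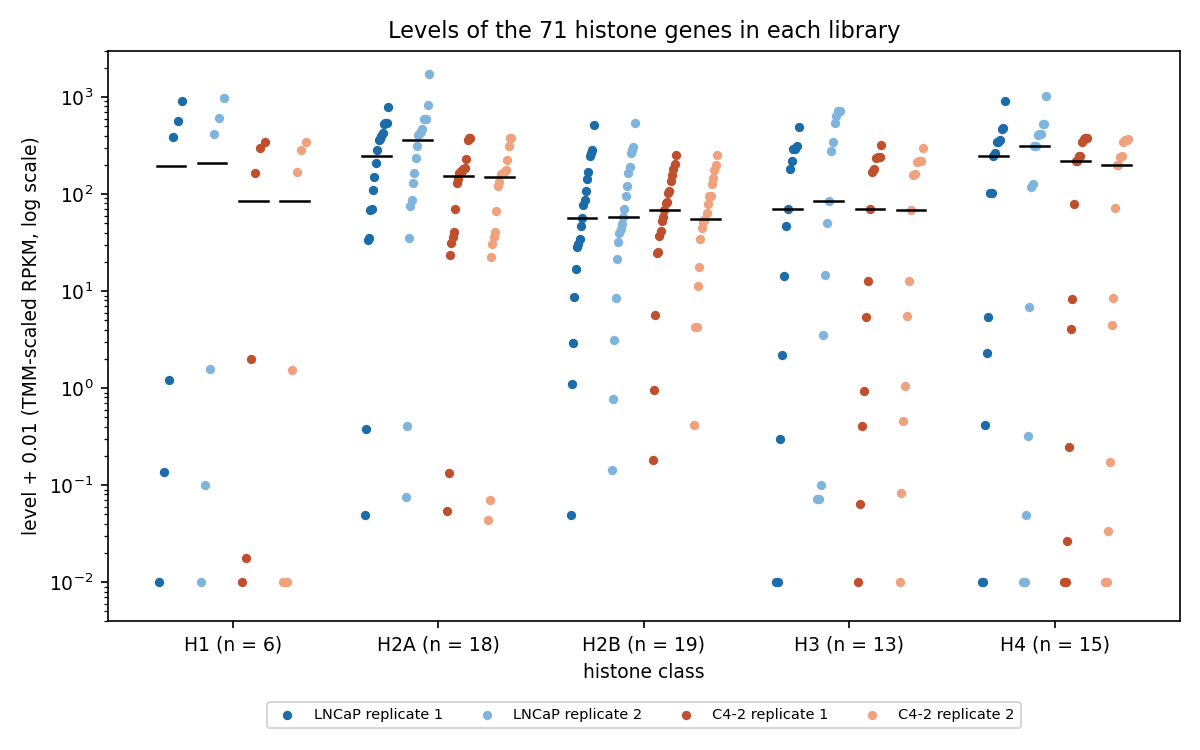
Level plus 0.01 (TMM-scaled RPKM, log axis) of every member in each library, by class, with a black line at the median over the members of the class. H2A points lie lower in both C4-2 libraries, H2B points change little as a class, and the members near the floor are those with few or no tags.

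H3, which with H4 forms the inner tetramer of the nucleosome, had 11 tested genes, 6 of them lower and 1 higher. By share 54.5% were lower and 9.1% higher, against 39.7% and 40.2% of all genes tested. The median log2 fold change was -0.73 with TMM and 0.27 with library totals. Of the 6, H3C14 and H3C15 are copies with identical counts. The row of H3C4 overlaps that of H2AC7 on the same strand, with 16232 and 11800 tags in LNCaP replicate 1, so these genes may share tags. Without members that overlap another gene on the same strand, 6 members of all classes were higher and 35 lower, with a median of -0.55. H3C2 stood at 486 and 539.5 in LNCaP and 319.5 and 297 in C4-2, a log2 fold change of -0.73 ± 0.06 (edgeR adjusted p = 1.08e-05) that became 0.27 with library totals. Its groups did not overlap on the TMM scale.

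H3C11 had the lowest fold change of the members. Its level was 46.9 and 49.8 in LNCaP and 0.91 and 1.05 in C4-2, from 1345 and 1680 tags against 70 and 59. The log2 fold change was -5.63 ± 0.10 with TMM (edgeR adjusted p = 5.88e-09) and -4.63 with library totals. H4C13, whose row lies next to that of H3C11 on chromosome 6 (27840926 to 27841289, GRCh37), had 50 and 1 tags in LNCaP and 0 in both C4-2 libraries and was not tested. H3C12 went the other way, at 2.19 and 3.55 in LNCaP and 5.42 and 5.52 in C4-2, a log2 fold change of 0.91 ± 0.20 (edgeR adjusted p = 0.00356).

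LNCaP replicate 2 stood apart at the abundant H3 genes of chromosome 1. H3C13 stood at 180.3 and 640 in LNCaP and 179.9 and 160.2 in C4-2, so that LNCaP replicate 1 was level with C4-2 replicate 1. H3C14 and H3C15, copies listed at the same 2 places with identical counts, stood at 291 and 711 in LNCaP and 240.1 and 221 in C4-2 at the minus-strand place used above. The log2 fold changes were -1.27 ± 0.46 and -1.12 ± 0.33, both called with edgeR and neither with DESeq2 (adjusted p = 0.145 and 0.0831). Without LNCaP replicate 2 they were -0.08, not called, and -0.33, still called (edgeR adjusted p = 0.178 and 2.03e-12). At the plus-strand place H3C14 and H3C15 had no such jump, with levels of 336 and 389 in LNCaP and 272 and 271 in C4-2 and a log2 fold change of -0.42 ± 0.07 (edgeR adjusted p = 0.000542). That place had 13178 opposite-strand tags in LNCaP replicate 2. H3C13 and H3C14 share a run of 167 identical bases (chr1:149784896-149785062, minus strand, in H3C13).

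H4 genes were lower or not called, with 7 of 12 tested genes lower (58.3%) and none higher, against 39.7% and 40.2% of all genes. The median log2 fold change was -0.58 with TMM and 0.42 with library totals. H4C3 was the most abundant H4 gene, at 917 and 1030.1 in LNCaP and 371 and 366 in C4-2. Its log2 fold change was -1.40 ± 0.06 (edgeR adjusted p = 2.43e-07) and -0.40 with library totals, called lower both ways. H4C11 and H4C12, singled out after their values were seen, were also lower both ways, but they share 329 identical bases and had 10105 and 10128 tags in LNCaP replicate 1, so they may not be separate measurements.

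H4C5 stood at 357 and 404 in LNCaP and at 345 and 343 in C4-2, a log2 fold change of -0.15 ± 0.06 that was not called (edgeR adjusted p = 0.052) and became 0.85 with library totals. H4C14 and H4C15, copies with identical counts, stood at 342 and 412 in LNCaP and at 377 and 357 in C4-2, with overlapping groups and a log2 fold change of -0.04 ± 0.08. Their sign changed under 7 other settings.

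H4C16 lies alone on chromosome 12, away from the large clusters. Its level was 102 and 119 in LNCaP and 8.35 and 8.44 in C4-2, a log2 fold change of -3.72 ± 0.09 (edgeR adjusted p = 2.18e-08) and -2.72 with library totals. The groups were far apart and the libraries of each line close. The next gene, 3204 bases away, is H2AJ, which makes a replacement form of H2A outside cell division and is not a member. H2AJ had 4692 and 6201 sense tags in LNCaP and 6 in each C4-2 library, a log2 fold change of -10.87 ± 0.14 (edgeR adjusted p = 1.67e-09). Whether the values of the 2 genes are linked was not tested.

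The members fell into 6 runs in the deposited coordinates (hg19), where a gap of over 500 kb starts a new one. The largest, on chromosome 6 from 25726291 to 26285727, held 35 members, of which 28 were tested, 3 higher and 16 lower, with a median of -0.55. The run at 27100095 to 27115346 on chromosome 6 held 5 members, all lower, with a median of -0.95. The run at 27775257 to 27861669 held 16 members, 1 higher and 11 lower of 15 tested, with a median of -0.69. On chromosome 1, the run at 149782117 to 149859466 held 12 members, 2 higher and 7 lower, with a median of -0.46, and the pair H2AC25 and H2BC26 near 228645065 had 1 lower. With library totals the medians of these 5 runs were 0.45, 0.05, 0.31, 0.54 and 0.71 in the same order. The sign of each run thus rests on the scaling. Over all genes tested 40.2% were higher and 39.7% lower with TMM, and the median was -0.01 with TMM and 0.99 with library totals.

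Head-to-head pairs allow a comparison that no scaling of libraries can move, since both genes are read in the same library. In 12 pairs an H2A and an H2B gene start 240 to 347 bases apart on opposite strands. The log2 ratio of the H2B level to the H2A level was higher in both C4-2 libraries than in both LNCaP libraries in 10 pairs, lower in 1 (H2BC4 with H2AC6) and overlapping in 1 (H2BC1 with H2AC1). For single genes the groups did not overlap in 89.9% of all genes tested, 44.6% higher and 45.4% lower in C4-2. Separated libraries are thus common in these data, and no such share was computed for ratios of other gene pairs. The median difference in log2 fold change, H2B minus H2A, was 0.78, with a range of -1.31 to 4.61. Of the 9 pairs in which no gene had a gap over 2-fold between libraries of a line, 8 were higher in C4-2, by 0.47 to 1.36. H2AC13 and H2AC14, both in those 8 pairs, share 332 identical bases, so their pairs may not be separate measurements. The rows of H2BC12 and H2BC21 run past the stem-loop, and that of H2AC7 overlaps H3C4. A correction for GC content and length acts on each gene and could move the ratios, and it was not applied to them.

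The pair H2BC13 and H2AC13 had log2 ratios of -1.91 and -1.90 in LNCaP and -0.88 and -0.87 in C4-2. H2BC12 exceeded H2AC12 in C4-2 (0.33 and 0.28) but not in LNCaP (-0.45 and -0.52). H2BC4 and H2AC6, the pair that went the other way, had ratios of 0.85 and 0.80 in LNCaP and 0.47 and 0.56 in C4-2. H2BC8 with H2AC8 had the widest range, from -0.24 and -4.72 in LNCaP to 0.74 and 0.78 in C4-2, and its difference from LNCaP replicate 1 alone was 0.998.

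**Figure D4:**
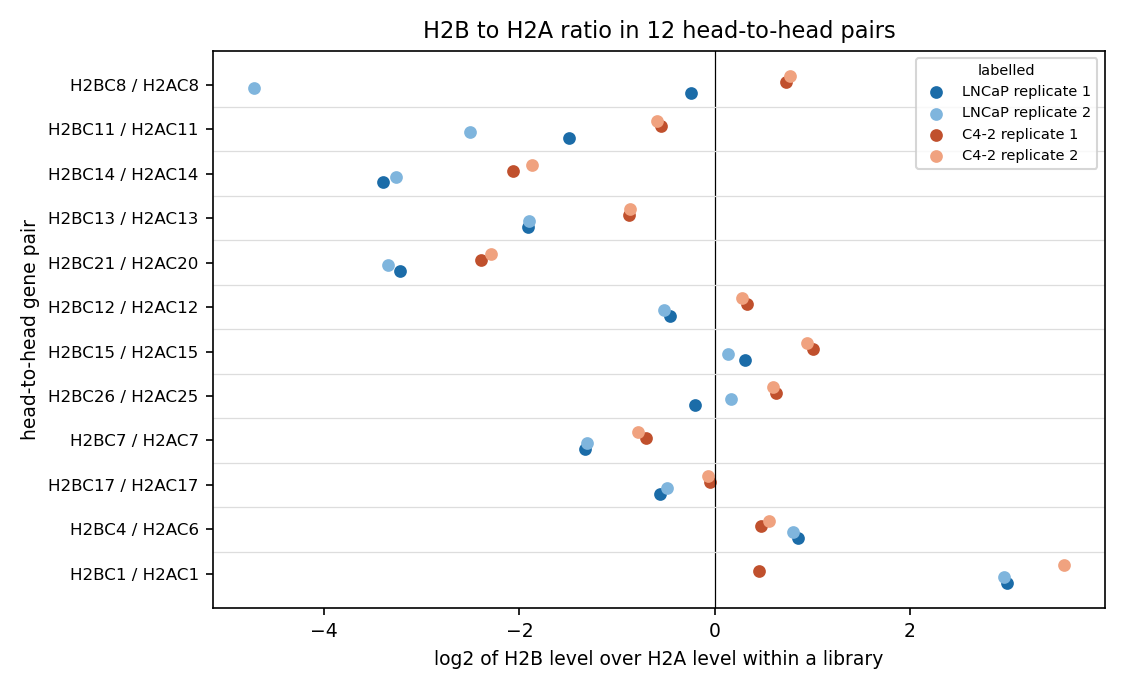
Log2 ratio of H2B level to H2A level within each library (points) for the 12 head-to-head pairs, ordered by the difference between the lines. In 10 pairs both C4-2 points lie to the right of both LNCaP points, H2BC4 with H2AC6 runs the other way, and H2BC1 with H2AC1 overlaps.

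The shared stretch between such genes holds their promoters. The octamer ATTTGCAT, the site that the POU factor OCT1 binds in H2B promoters, was looked for on both strands in the RefSeq promoter windows of 250 bases before to 50 after each start (GRCh38.p14), which matched 64 members. It was in 26 of 64 members (40.6%), against 1.80% of 27305 promoters. By class it was in 14 of 18 H2B, 11 of 16 H2A, 1 of 11 H3, 0 of 6 H1 and 0 of 13 H4 promoters. The H3 promoter with it, that of H3C4, holds the same copy as H2AC7 and H2BC7. In 8 of the 12 pairs both genes hold the same copy, but H2AC12 had no promoter window, so its pair with H2BC12 could not be judged. The stretches below show pairs that went with and against the main pattern and the H2B gene with the highest fold change, each in the sense of the H2B gene with the octamer in capitals.
H2BC11 and H2AC11 (GRCh38.p14, chr6:27132815-27132862, minus strand): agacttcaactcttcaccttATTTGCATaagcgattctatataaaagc
H2BC21 and H2AC20 (GRCh38.p14, chr1:149886701-149886748, minus strand): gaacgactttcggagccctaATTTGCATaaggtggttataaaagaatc
H2BC8 and H2AC8 (GRCh38.p14, chr6:26216709-26216756, minus strand): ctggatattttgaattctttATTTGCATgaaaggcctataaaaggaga
H2BC4 and H2AC6 (GRCh38.p14, chr6:26124022-26124069, minus strand): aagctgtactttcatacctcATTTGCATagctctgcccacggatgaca
H2BC9 (GRCh38.p14, chr6:26251545-26251592, plus strand): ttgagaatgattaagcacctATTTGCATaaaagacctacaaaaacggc

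In the 14 H2B promoters the octamer lay 45 to 149 bases before the annotated start. The TATA sequence TATAAA was in 65.6% of member promoters against 11.9% of all, and CCAAT, the box bound by NF-Y, in 84.4% against 35.7%, both searched on either strand. CCAAT was in every H1, H2A, H2B and H3 promoter of the window and in 3 of 13 H4 promoters. These are matches of letters and do not show that a factor was bound.

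Of the 71 members, 33 had a level of 100 or more in every library. With TMM 28 of these were lower, 5 were not called and none was higher, where 39.7% of all genes were lower. A level divides tags by exon length. The rows of H2BC18 and H2BC21, both called higher, hold 1812 and 2223 exon bases and run past the stem-loop. This could lower their levels, so they may have missed the limit of 100 for that reason. With library totals 8 of the 33 were lower, 14 higher and 11 not called, where 13029 of all 15975 genes tested had a positive value. Another 10 were under a level of 1 in every library, and 7 had at most 10 tags in each. The 8 members that were not tested were H1-1, H1-3, H2AC2P, H3C7, H3C8, H4C6, H4C7 and H4C13, and other than H4C13 none had over 6 tags in a library.

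Some member values rest on a jump in 1 library. A gap of over 2-fold between the libraries of a line was found at 5 of 52 members with a mean of at least 10 CPM, against 30 of 9651 genes (0.31%). The 5 are 4 separate measurements, since H3C14 and H3C15 share their counts. In LNCaP replicate 2 the extra tags over replicate 1 were 32018 at H2AC8, 33228 at H2AC11, 14859 at H3C13 and 15101 at the minus-strand copy of H3C14 and H3C15. In C4-2 replicate 1 the plus-strand copy of H2AC18 and H2AC19 had 51595 tags against 18891 in replicate 2, a 2.01-fold gap with 25869 extra tags. H2AC8 and H2AC11 share no identical run longer than 23 bases, a run also found in H2AC4, H2AC15 and H2AC2P. The source of these tags was not tested. Without the members with such gaps the share of sense tags was 0.687% and 0.751% in LNCaP and 0.419% and 0.403% in C4-2, 1.75-fold higher in LNCaP.

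The machinery that makes and destroys histone messages went the other way with TMM. Of 23 listed genes, 16 were higher and 5 lower in C4-2 (69.6% and 21.7%), against 40.2% and 39.7% of all genes tested. Their median log2 fold change was 0.40. With library totals 23 were higher and the median was 1.41, where 13029 of all 15975 genes tested had a positive value and the median was 0.99. SLBP, which binds the stem-loop, stood at 48.9 and 47.4 in LNCaP and 92.5 and 97.9 in C4-2, a log2 fold change of 0.98 ± 0.05 (edgeR adjusted p = 3.86e-07). CASP8AP2, a component of the histone locus body, was higher by 1.30 ± 0.06, UPF1, a helicase of histone message decay, by 1.13 ± 0.05 and NCBP1, the large subunit of the cap-binding complex, by 0.89 ± 0.04. The 5 lower genes, named after their values were seen, were HINFP, LSM1, LSM10, NELFE and POU2F1, at -0.75 to -0.40, and all 5 turned positive with library totals. NPAT, the coactivator of the histone locus body, had a value of 0.33 ± 0.07.

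Genes of DNA copying and of histone transport were also higher. Of 28 S phase genes, 24 were higher and 3 lower (85.7% and 10.7%), against 40.2% and 39.7% of all genes tested. Their median was 0.70 with TMM and 1.71 with library totals. MCM6 and MCM4, subunits of the replicative helicase, were higher by 2.10 ± 0.05 and 1.90 ± 0.04, the DNA methylation cofactor UHRF1 by 2.20 ± 0.05 and the flap endonuclease FEN1 by 1.78 ± 0.04. CCNA2, GMNN and RFC4 were the 3 lower genes, named after their values were seen. Of 16 chaperones and carriers of histones, 12 were higher and 2 lower (75.0% and 12.5%), beside the same shares of all genes. Their median was 0.58 with TMM and 1.59 with library totals. CHAF1A, the large subunit of the chromatin assembly factor, was higher by 1.43 ± 0.05, the importin IPO4 by 2.02 ± 0.07, SUPT16H of the FACT complex by 1.18 ± 0.04 and NAP1L4 by 1.01 ± 0.04. So with TMM the member median (-0.60) and the S phase median (0.70) lay on opposite sides of the all-gene median. With library totals (0.40 and 1.71) they lay on opposite sides of 0.99. That scaling moves all medians nearly alike, so it gives no second comparison.

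**Figure D5:**
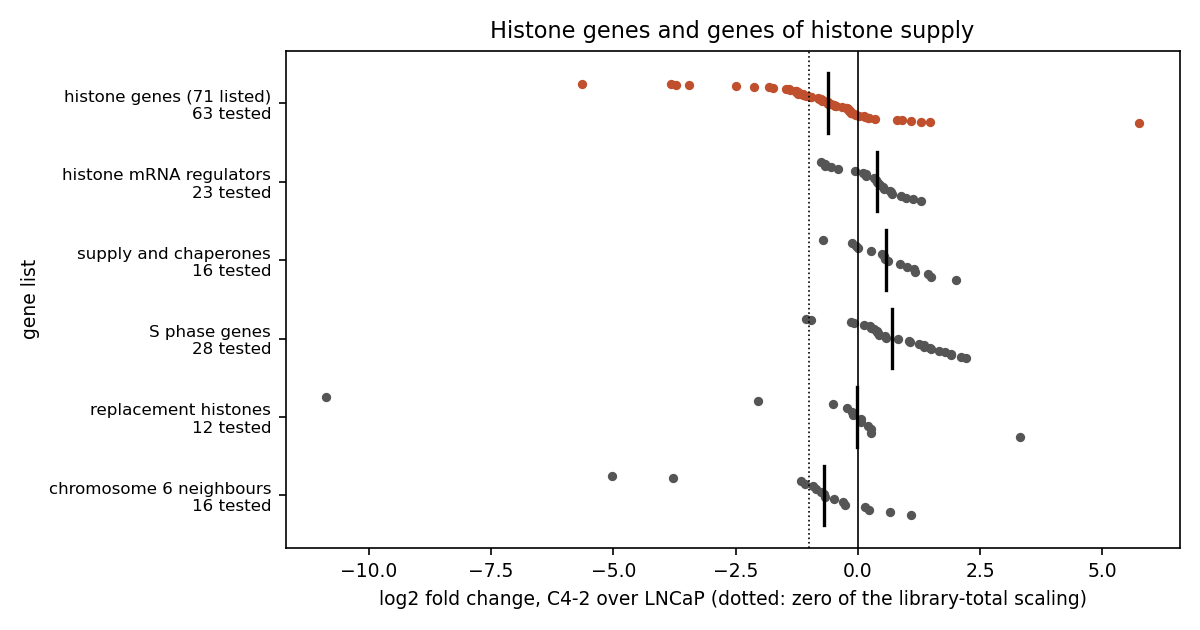
Log2 fold change of C4-2 over LNCaP with TMM scaling (points, 1 per tested gene, black bars at the median) for the histone genes and 5 lists of related or neighbouring genes. The histone genes (median -0.60) lie to the left of the regulators (0.40), chaperones (0.58) and S phase genes (0.70), and near the chromosome 6 neighbours (-0.68).

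The other genes that lie among the chromosome 6 histone genes were compared with their neighbours. Of 20 listed, 16 were tested, and 3 were higher and 11 lower (18.8% and 68.8%), against 40.2% and 39.7% of all genes tested. Their median was -0.68 with TMM and 0.32 with library totals, close to the members. HMGN4, a nucleosome-binding protein, was lower by TMM at -1.08 ± 0.05, ZNF322 at -0.69 ± 0.05 and HFE, a regulator of iron uptake, at -3.77 ± 0.20, while BTN3A3 was higher at 1.09 ± 0.07. Their part in the values of the members was not tested.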

How the data were processed

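Groups follow the sample labels. The submitters' processing notes name TopHat2 2.0.6, Bowtie and the build hg19 (GRCh37). Each deposited table gives, for both strands of 41351 RefSeq rows, the authors' tag counts and RPKM, as its header says. How tags were counted, and the read length, is not given in the sources used. Rows were named with a RefSeq table (38974 of 40304 accessions), and unnamed rows, 2.06% to 2.15% of sense tags, stayed out. The row with the highest mean share of tags was kept for each symbol, and the exon length and library total were recovered from counts and deposited RPKM.

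Sense counts of 15975 genes were tested with the edgeR 4.0.16 quasi-likelihood test (R 4.3.3, filterByExpr, TMM, cell line as the only term). Each standard error is the fold change divided by the root of its F statistic. On simulated counts, 50%, 94%, 100% and 100% of 50 genes changed 1.25, 1.5, 2 and 4-fold were called, with 29 false calls among 15591 unchanged genes. The true calls were 25, 47, 50 and 50, so false calls were a larger part of all calls than the 0.05 aimed at. Only 50 genes per fold were changed there, while 80.0% of genes tested were called in the data. The simulation therefore does not give the false share of the real calls. The biological coefficient of variation was 6.43%. LNCaP and C4-2 replicates differed by more than sampling noise (chi-square per degree of freedom 25.1 and 12.8).

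The members and lists were chosen with earlier results of these data known, so no list test was run. Members named are the 4 most abundant of each class and the called members with the 3 highest and the 3 lowest fold changes, with up to 4 genes of each other list by smallest adjusted p. Other settings were library totals, filters, both strands, GC and length correction, the replicate block, leaving out each library, leaving out overlapping members and DESeq2 1.42.0. Setting aside members with replicate gaps, using the other row of copies listed at 2 places, and counting identical members once in the share were chosen after seeing the data. The kit named in the labels is sold as unstranded, yet the tables split tags by strand with under 2% on the opposite strand. How strand was kept is not stated, so sense and opposite tags are the tables' own assignment.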

Additional observations from a re-analysis of the deposited data

Results flagged for a closer look

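Tags on the strand opposite to the gene were not used in the comparisons. The kit named in the labels is sold as unstranded, so how the tables came to split tags by strand is not known. Over named genes they were 1.29% to 1.99% of tags, and 4 member rows had at least 100 of them in 1 library and more than 10% of the sense tags. The minus-strand copy of H2AC18 and H2AC19 had 24948 opposite-strand tags in C4-2 replicate 1, 77.3% of its 32260 sense tags. The plus-strand copy of H3C14 and H3C15 had 13178 in LNCaP replicate 2, 94.4% of its 13963 sense tags. H1-2 had 8827 in LNCaP replicate 1, 22.0% of its 40034 sense tags. H2BC20P had 140 in LNCaP replicate 2, 15.7% of its 890 sense tags. The library with the tags was a single one in each case. Their source was not tested.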

How the results depend on the processing

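With the library totals behind RPKM, 35 members were higher and 13 lower, their median log2 fold change was 0.396 and the log2 ratio of their share of tags 0.081 (main -0.946), and 0 regulators were lower. Correction for GC content and length, which covered 91.5% of members, gave 20 higher and 34 lower members, and H2BC5 lost its call (-0.059, with the block -0.058). Median GC content was 58.2% in members and 49.0% over all genes, and median exon length was 460 and 2633 bases. Leaving out 1 library gave 6 to 13 higher members (13 without LNCaP replicate 2), 36 to 49 lower and medians of -0.663 to -0.409. The replicate numbers did not pair the libraries (correlation of deviations -0.032). A replicate block gave 7 higher and 41 lower members, and the block with GC and length correction 21 higher.

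With library totals these members turned: H1-4 0.526, H2AC18 and H2AC19 0.396, H2AC20 0.262, H2BC11 0.053, H2BC12 0.563, H2BC5 0.506, H3C2 0.267, H4C14 and H4C15 0.959, H4C5 0.853. H4C14 and H4C15 also turned with no filter (0.005), both strands (0.002), GC and length correction (0.282, with the block 0.283), and without LNCaP replicate 2 (0.106) or C4-2 replicate 2 (0.010), over a range of -0.159 to 0.106 when 1 library was left out. H4C5 turned with GC and length correction (0.266, with the block 0.267). H2AC18 and H2AC19 turned at their other place (0.040). Of 318 values of named members under other settings, 268 kept direction and call, 27 turned, 14 lost the call and 9 gained one. The cause was not tested. The filter on low counts left 8 members untested, so no difference was judged for them in the main setting. H4C13 among them had 50 and 1 tags in the LNCaP libraries, which disagreed, and depth limits the others. With no filter 70 members were fitted, and 7 were called higher and 43 lower.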
